A study of Mus musculus with 6 samples.

Results

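The antibody variable segments were the rows of the read count table whose symbol began with Ighv (heavy chain), Igkv (kappa light chain) or Iglv (lambda light chain) and whose summed count over the 6 libraries was at least 5. Of 222 such rows among 35275 genes, 148 met this, namely 72 of 114 heavy, 73 of 105 kappa and 3 of 3 lambda segments. The members held 7833 of the 7892 counts in these rows (99.3%). The members were selected on their summed count, so the presence and level of the members are descriptions and were not tested as a set. At a summed count of 5, just inside the threshold, were Ighv2-4 and Igkv3-9, and at 4, just outside it, were Ighv1-62-2 and Ighv1-63. Of the 74 rows left out, 47 had no count in any library.

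RNA was taken from the isolated epithelial region of the back skin of C57BL/6 mice, in 3 libraries of interleukin-33 knockouts (IL-33 KO) and 3 libraries of the wild type (WT). Interleukin-33 is an alarm cytokine that epithelial cells keep in the nucleus until damage frees it. Both genotypes had received the contact allergen DNFB (dinitrofluorobenzene, 0.25% in acetone and olive oil) on that skin, 3 times a week over 22 days, and no untreated skin was compared. The age and sex of the mice and the kind of Il33 allele are not given in the labels.

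A B cell builds its antibody genes by cutting and joining DNA. The heavy chain locus joins a variable (V), a diversity (D) and a joining (J) segment, and the kappa or lambda locus joins a V to a J segment. Each mature B cell therefore transcribes, as a rule, a single heavy and a single light V segment in full. Plasma cells, the antibody-secreting end stage of this lineage, hold far more antibody RNA per cell than other B cells. A B cell that divides passes its joined segments on, so the members of a clone share a single heavy and a single light segment. V segments fall into families of similar sequence, named by the number after the v, and the last number gives the order along the locus.

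Il33 itself had 21, 22 and 11 counts in the IL-33 KO libraries, against 3906, 3086 and 2817 in WT. Total counts were 20459574 to 23671769 in IL-33 KO and 21312392 to 24359612 in WT. Levels are given in CPM (counts scaled to a common library size) after TMM scaling, a correction of library size for composition. Markers of other cells of the skin differed between genotypes as well. All 13 listed hair follicle genes were higher in every IL-33 KO library than in every WT library, as were 7.46% of the 15720 genes tested, and their summed level was 10554 to 21815 CPM in IL-33 KO against 2625 to 5808 CPM in WT. The 8 skeletal muscle genes summed to 138, 12.7 and 285 CPM in IL-33 KO and to 9.11 to 9.96 CPM in WT. The 7 adipocyte genes summed to 660 to 897 CPM against 155 to 662 CPM, the 8 keratinocyte genes to 29213 to 49449 CPM against 40751 to 69056 CPM, and 7 T cell genes to 28.1 to 42.3 CPM against 20.4 to 36.0 CPM. The part of this difference in tissue composition in the values below was not tested. Within each genotype the library with the most follicle transcripts also had the most variable segment transcripts. These were IL-33 KO 1 with 21815 and 135.8 CPM and WT 3 with 5808 and 15 CPM. Below them the order did not hold in WT, with 3680 and 7.31 CPM in WT 1 and 2625 and 12.6 CPM in WT 2. IL-33 KO 2 and IL-33 KO 3 were close in follicle transcripts, at 10890 and 10554 CPM. Their variable segment transcripts were apart, at 124.3 and 41.2 CPM. IL-33 KO 3, which had the most muscle transcripts, had the fewest variable segment transcripts of its genotype.

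The segments differ from one another by few letters, which bears on how far their counts can be told apart. The stretches below show the segments on which the counts turn beside a close relative. Each is the last 150 coding bases of the segment as given in GENCODE M21 (mm10), 5′ to 3′ on the coding strand, and ends near the place where the V segment is joined. Capitals mark bases that differ from the first sequence of each set. The lambda pair is Iglv1 (chr16:19085017-19085166, minus strand) and Iglv2 (chr16:19260401-19260550, minus strand).
Iglv1: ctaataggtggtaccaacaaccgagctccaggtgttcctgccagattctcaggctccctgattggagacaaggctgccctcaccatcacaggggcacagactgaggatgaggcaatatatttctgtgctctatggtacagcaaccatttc
Iglv2: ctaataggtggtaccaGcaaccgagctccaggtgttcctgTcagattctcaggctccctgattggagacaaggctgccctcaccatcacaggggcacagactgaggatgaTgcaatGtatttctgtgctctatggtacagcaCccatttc
Iglv1 and Iglv2 were 96.3% identical over their whole coding sequence. Igkv1-110 (chr6:68271118-68271267), Igkv1-117 (chr6:68121678-68121827) and Igkv1-135 (chr6:67610359-67610508), all on the plus strand, are the 3 most counted segments of the largest kappa family in these libraries.
Igkv1-110: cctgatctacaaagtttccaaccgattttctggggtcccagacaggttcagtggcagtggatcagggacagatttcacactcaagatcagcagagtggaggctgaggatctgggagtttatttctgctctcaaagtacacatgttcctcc
Igkv1-117: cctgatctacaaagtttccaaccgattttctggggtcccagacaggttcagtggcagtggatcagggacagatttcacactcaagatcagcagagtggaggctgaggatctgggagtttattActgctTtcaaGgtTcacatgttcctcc
Igkv1-135: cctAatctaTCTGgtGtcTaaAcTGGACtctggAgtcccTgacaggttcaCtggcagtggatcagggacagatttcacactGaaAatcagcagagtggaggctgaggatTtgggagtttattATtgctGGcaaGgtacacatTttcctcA
Igkv1-117 was 97.2% identical to Igkv1-110, and Igkv1-135 was 78.3% identical to it. Igkv3-2 (chr6:70698918-70699067) and Igkv3-4 (chr6:70672228-70672377), on the plus strand, are shown because Igkv3-4 had the smallest p of all members.
Igkv3-2: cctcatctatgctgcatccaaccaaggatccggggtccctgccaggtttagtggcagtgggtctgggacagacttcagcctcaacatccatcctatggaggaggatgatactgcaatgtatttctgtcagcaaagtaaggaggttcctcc
Igkv3-4: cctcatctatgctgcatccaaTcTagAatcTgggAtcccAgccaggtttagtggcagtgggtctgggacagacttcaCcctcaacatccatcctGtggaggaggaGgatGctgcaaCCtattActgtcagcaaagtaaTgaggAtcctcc
The pair was 91.4% identical. Among heavy segments, Ighv1-19 (chr12:114708648-114708797), Ighv1-26 (chr12:114788372-114788521) and Ighv1-81 (chr12:115920279-115920428), all on the minus strand, each led 1 library.
Ighv1-19: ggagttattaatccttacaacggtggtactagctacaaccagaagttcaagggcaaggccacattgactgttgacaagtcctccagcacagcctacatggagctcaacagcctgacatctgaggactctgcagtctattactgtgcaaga
Ighv1-26: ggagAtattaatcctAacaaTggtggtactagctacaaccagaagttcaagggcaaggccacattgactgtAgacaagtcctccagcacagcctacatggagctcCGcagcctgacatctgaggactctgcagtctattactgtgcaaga
Ighv1-81: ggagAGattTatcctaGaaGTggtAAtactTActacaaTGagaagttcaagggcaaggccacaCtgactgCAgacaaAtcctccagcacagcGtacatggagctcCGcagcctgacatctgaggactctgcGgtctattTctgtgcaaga
Ighv1-26 was 95.4% and Ighv1-81 84.7% identical to Ighv1-19. Ighv14-2 (chr12:113994469-113994618, minus strand) led another library, and Ighv14-1, of the same family (chr12:113931953-113932102, minus strand), was high in the same library.
Ighv14-2: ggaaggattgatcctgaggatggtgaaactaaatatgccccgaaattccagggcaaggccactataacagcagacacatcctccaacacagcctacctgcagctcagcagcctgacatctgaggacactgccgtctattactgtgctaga
Ighv14-1: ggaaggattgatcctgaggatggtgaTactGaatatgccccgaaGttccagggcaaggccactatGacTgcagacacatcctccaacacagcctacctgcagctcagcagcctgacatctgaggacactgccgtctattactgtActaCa
This pair was 97.2% identical. Ighv10-1 (chr12:114479005-114479154, minus strand) and Ighv10-3 (chr12:114523441-114523590, minus strand) are shown because Ighv10-1 was counted in every library and Ighv10-3 in no WT library.
Ighv10-1: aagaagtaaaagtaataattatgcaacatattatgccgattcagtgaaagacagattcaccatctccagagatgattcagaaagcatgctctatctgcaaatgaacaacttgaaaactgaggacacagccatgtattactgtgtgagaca
Ighv10-3: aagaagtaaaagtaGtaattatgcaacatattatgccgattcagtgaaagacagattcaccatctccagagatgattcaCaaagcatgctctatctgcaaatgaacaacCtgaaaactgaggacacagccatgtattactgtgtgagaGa
They were 96.7% identical, with 12 mismatches over the whole coding sequence. Of the 148 members, 144 had a GENCODE M21 coding sequence. The median identity of a member to its nearest copy among the listed segments was 93.7%, and 58 members had a copy over 95% identical. A median of 76.2% of a member's 50-base windows occurred in no other listed segment, 23 members were unique in every window and 20 in under 50% of their windows. Antibody genes of B cells that have met antigen also carry mutations, so a read may match a sister segment better than its own. Counts of single segments with close copies are therefore less certain than sums over a locus or family.

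Transcripts of all 3 loci were higher in every IL-33 KO library than in every WT library, by a similar factor. Heavy segments summed to 928, 862 and 224 counts in IL-33 KO, against 52, 78 and 118 in WT. This was 28.8 ± 15.6 CPM in IL-33 KO and 3.56 ± 1.02 CPM in WT (SD, n = 3 each), a ratio of 8.08. Kappa segments summed to 1955, 1833 and 558 counts in IL-33 KO, against 78, 185 and 232 in WT. Their level was 62.2 ± 30.6 CPM in IL-33 KO and 7.05 ± 2.76 CPM in WT, a ratio of 8.83. Lambda segments had 338, 252 and 69 counts in IL-33 KO, against 15, 26 and 30 in WT, or 9.41 ± 5.56 CPM against 1.02 ± 0.234 CPM, a ratio of 9.18. At every locus IL-33 KO 3 was the lowest library of its genotype, and WT 1 the lowest of WT. All variable segments together came to 135.8, 124.3 and 41.2 CPM in IL-33 KO and to 7.31, 12.6 and 15 CPM in WT. In bulk tissue, fewer antibody-making cells and less antibody RNA per cell cannot be told apart.

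**Figure D1:**
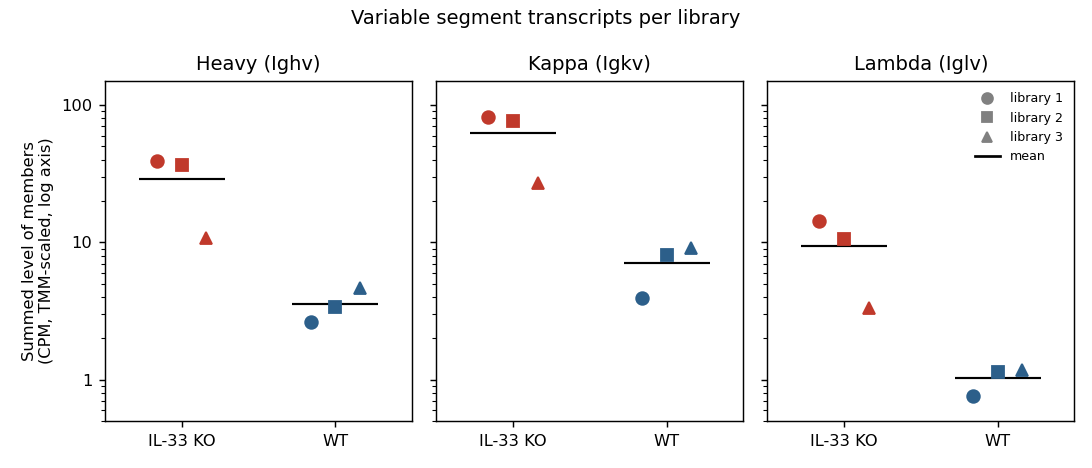
Summed level of the heavy, kappa and lambda segments in CPM (log axis), with a point per library and a bar at the mean of each genotype. At each locus the 3 IL-33 KO libraries lie above the 3 WT libraries, and IL-33 KO 3 lies lowest of its genotype, at 10.8 CPM for heavy, 27.0 CPM for kappa and 3.34 CPM for lambda segments.

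The balance between the loci was alike in both genotypes. Heavy segments held 28.8, 29.3 and 26.3% of variable segment counts in IL-33 KO, against 35.9, 27.0 and 31.1% in WT. Kappa held 60.7, 62.2 and 65.6% in IL-33 KO and 53.8, 64.0 and 61.1% in WT. Lambda held 10.5, 8.55 and 8.11% in IL-33 KO and 10.3, 9.0 and 7.89% in WT. The genotypes overlapped in each of these shares. Kappa made up 87.4 ± 1.92% of light chain variable counts in IL-33 KO, against 86.7 ± 2.49% in WT (SD, n = 3 each), and the difference of 0.69 percentage points was smaller than the spread in either genotype. The lambda share of light chain counts was 14.7% in IL-33 KO 1 (95% exact binomial interval 13.3 to 16.3%) and 16.1% in WT 1 (9.32 to 25.2%), the highest value of each genotype. Such intervals cover counting error only, because without molecular identifiers several reads can come from 1 molecule. Light chain counts per heavy chain count were 2.47, 2.42 and 2.80 in IL-33 KO and 1.79, 2.71 and 2.22 in WT. These are shares and ratios of counts and were not divided by length, although the listed lengths were alike, with a median of 350 bases for heavy, 348 for kappa and 351 for lambda members.

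Lambda counts came almost wholly from Iglv1. Mice have few lambda V segments, and Iglv1 is the one that joins in most lambda-bearing mouse B cells. Iglv1 had 314, 231 and 65 counts in IL-33 KO, against 15, 25 and 29 in WT, or 8.71 ± 5.13 CPM against 0.997 ± 0.210 CPM. Its share of lambda counts was 92.9, 91.7 and 94.2% in IL-33 KO and 100, 96.2 and 96.7% in WT. The exact intervals of these shares overlapped in all libraries, the widest being 78.2 to 100% for the 15 counts of WT 1. Iglv2, its close copy, had 3, 18 and 1 counts in IL-33 KO, against none in WT. Iglv3 had 21, 3 and 3 counts in IL-33 KO, against 0, 1 and 1 in WT. The minor segments thus peaked in different IL-33 KO libraries, Iglv3 in the first and Iglv2 in the second, while Iglv1 was high in both.

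Across single segments the test was made over all genes at once. In edgeR's quasi-likelihood test with Benjamini-Hochberg adjustment over 15720 genes, 2 genes were higher in IL-33 KO (0.0127% of genes tested) and 1 was lower (0.00636%) at an adjusted p under 0.05. None of the 148 segments was among these 3 genes. Only 30 of the 148 had enough counts to enter this test, 7 heavy, 22 kappa and 1 lambda. Of the 30, 23 had an unadjusted p under 0.05, all higher in IL-33 KO, where the share of all genes higher at that p was 4.87% and lower 4.15%. Each IL-33 KO library exceeded each WT library for 21 of the 30, against 7.46% of all genes tested, and for none was the reverse true, against 6.47%. A segment could enter the test through its IL-33 KO counts alone, and 17 of the 30 reached the filter's 0.437 CPM in no WT library, so these counts describe the segments and do not support a difference. DESeq2, another count test, called 38 segments, all higher in IL-33 KO, where 1.02% of the genes it adjusted were called higher and 0.257% lower. The labels number the mice without stating that each library is a separate animal, so these p-values reflect the spread between the libraries, which may be technical.

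Kappa segments made up most of the tested members, and all of the 8 most counted had a higher CPM in every IL-33 KO library than in every WT library. Igkv1-110 had the most counts of any kappa segment, with 208, 122 and 50 in IL-33 KO and 11, 14 and 61 in WT. It came to 5.44 ± 3.19 CPM in IL-33 KO and 1.19 ± 1.05 CPM in WT, and the genotypes nearly met, since WT 3 was almost as high as IL-33 KO 3 (log2 fold change 2.16 ± 0.65 SE, edgeR adjusted p 0.452). Igkv1-117 had 98, 97 and 24 counts in IL-33 KO, against 11, 8 and 20 in WT (log2 fold change 2.46 ± 0.55 SE, edgeR adjusted p 0.326). The third segment of that family, Igkv1-135, had 61, 127 and 18 counts in IL-33 KO, against 0, 6 and 6 in WT, which did not overlap in CPM. Of the 50-base windows of Igkv1-110 and Igkv1-117, 55.8 and 56.5% occurred in no other listed segment, so their sum is more certain than either.

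Igkv10-96 varied least, relative to its mean, among the IL-33 KO libraries of the 8 most counted kappa segments. It had 97, 92 and 58 counts in IL-33 KO, against 0, 3 and 11 in WT, or 3.59 ± 0.689 CPM against 0.188 ± 0.222 CPM (log2 fold change 4.13 ± 0.66 SE, edgeR adjusted p 0.182). Igkv3-4 had the smallest p of all members, with 38, 56 and 27 counts in IL-33 KO, against 0, 0 and 1 in WT. Its counts lay in all 3 IL-33 KO libraries, with an adjusted p of 0.0515 in edgeR. Igkv6-23 was alike, with 40, 21 and 17 counts in IL-33 KO, against 1, 0 and 1 in WT, a 39.0-fold ratio with 10.4 to 328 as its 95% counting interval (edgeR adjusted p 0.159). Igkv12-46 and Igkv12-44, named after their values were seen, had no WT count, and their 75 and 69 counts in IL-33 KO put them at least 25-fold and 23.0-fold higher against a floor of 3 counts over the WT libraries. Igkv3-2 had 114, 37 and 17 counts in IL-33 KO against 0, 8 and 1 in WT. Igkv6-15 had 47, 73 and 17 against 7, 9 and 4, and Igkv8-30 had 57, 44 and 14 against 1, 5 and 7. None of these passed the adjusted threshold, with edgeR adjusted p of 0.376, 0.314 and 0.292.

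A pair of kappa segments that led a WT library did not separate the genotypes. Igkv14-111 had 15, 64 and 7 counts in IL-33 KO, against 23, 0 and 2 in WT. Igkv4-53 had 26, 29 and 0 counts in IL-33 KO, against 0, 20 and 12 in WT. Each was at 0 in 1 WT library and led another. Their edgeR adjusted p were 0.690 and 0.846.

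Heavy segments had lower counts, and fewer of them could be tested. Ighv1-26 was found in all 3 IL-33 KO libraries with 41, 33 and 17 counts, against 0, 3 and 1 in WT, or 1.31 ± 0.458 CPM against 0.0568 ± 0.0672 CPM (log2 fold change 4.37 ± 0.69 SE, edgeR adjusted p 0.182). Ighv5-17 had 36, 32 and 11 counts in IL-33 KO, against 0, 4 and 2 in WT (edgeR adjusted p 0.292). Both were higher in every IL-33 KO library than in any WT library. Ighv3-6 with 55, 28 and 7 counts in IL-33 KO against 1, 1 and 5 in WT, and Ighv9-3 with 32, 51 and 7 against 0, 0 and 1, did not overlap in CPM but had too few counts in enough libraries to be tested. Ighv1-64 had 33, 32 and 3 counts in IL-33 KO, against 3, 2 and 4 in WT, and overlapped. The most counted heavy segment over all libraries was Ighv1-81, with 41, 20 and 8 counts in IL-33 KO, against 9, 4 and 23 in WT. WT 3 exceeded 2 IL-33 KO libraries, and the difference was within the spread (log2 fold change 0.93 ± 0.68 SE, edgeR adjusted p 0.693).

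The close copies of the Ighv10 family had unlike counts. Ighv10-3 had 22, 30 and 15 counts in IL-33 KO, against none in any WT library, at least 22.3-fold higher against a floor of 3 counts over the WT libraries (edgeR adjusted p 0.182). Ighv10-1 had 19, 11 and 2 counts in IL-33 KO, against 19, 14 and 10 in WT. It was the only tested member with a negative log2 fold change, at 0.454 ± 0.352 CPM in IL-33 KO and 0.654 ± 0.284 CPM in WT, and this difference was within the spread (log2 fold change -0.48 ± 0.65 SE, edgeR adjusted p 0.832). All 43 Ighv10 counts of the WT libraries thus fell on Ighv10-1, while 67 of the 99 of IL-33 KO fell on Ighv10-3. Of the 50-base windows of each copy, 77.7% occurred in no other listed segment. The mean CPM of 2 other segments was also higher in WT, Ighv2-3 with 7, 0 and 1 counts in IL-33 KO against 0, 2 and 9 in WT, and Ighv2-6-8 with 1, 0 and 0 against 0, 0 and 5. For the other 145 members the mean was higher in IL-33 KO, where 48% of the 15720 genes tested had a positive log2 fold change. Members could pass the summed count of 5 through IL-33 KO counts alone, so this number only describes them.

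**Figure D2:**
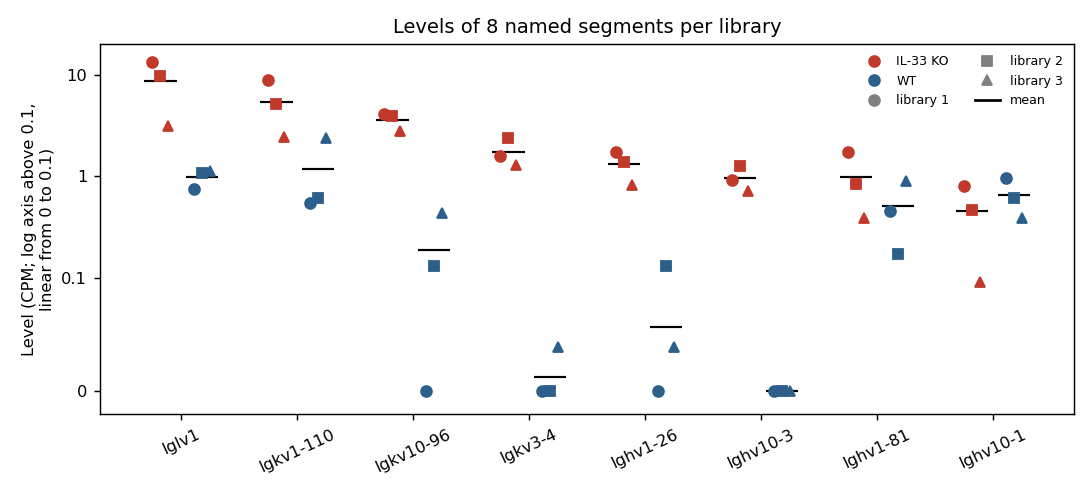
Level of 8 named segments in CPM, on an axis that is logarithmic above 0.1 and linear below, with IL-33 KO libraries to the left of WT libraries for each segment and a bar at the mean. Iglv1, Igkv10-96, Igkv3-4, Ighv1-26 and Ighv10-3 are higher in each IL-33 KO library, the lowest IL-33 KO and highest WT library nearly meet for Igkv1-110, and the genotypes overlap for Ighv1-81 and Ighv10-1.

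More segments were seen in IL-33 KO, and this held when the number of counts was made equal. In IL-33 KO 67, 66 and 49 of the 72 heavy segments had a count, against 19, 24 and 31 in WT. Of the 73 kappa segments, 72, 70 and 58 had a count in IL-33 KO and 19, 35 and 41 in WT. Since the IL-33 KO libraries held more antibody counts, these numbers tend to be larger there. Each library was therefore thinned, by calculation, to the counts of the poorest one. At 52 heavy counts, 30.0, 30.9 and 28.1 segments were expected in IL-33 KO and 19.0, 20.5 and 22.8 in WT. At 78 kappa counts, 37.8, 38.0 and 33.8 were expected in IL-33 KO and 19.0, 27.2 and 26.8 in WT. The genotypes did not overlap at either locus after thinning. Thinning treats each count as a separate draw, although several reads can come from a single molecule or cell. It makes the counts equal, and not the number of antibody-making cells behind them. The part of that number in the breadth of segments was not tested.

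The inverse Simpson index gave the same order. It is the number of equally used segments that would give the observed chance that a pair of counts falls on a single segment. The index depends little on read depth, but like thinning it treats each count as a separate draw. For heavy segments it was 32.9, 37.4 and 31.7 in IL-33 KO and 6.11, 13.3 and 15.4 in WT, a mean of 34.0 ± 3.01 against 11.6 ± 4.86 (SD, n = 3 each). For kappa segments it was 31.5, 35.5 and 26.6 in IL-33 KO and 7.43, 19.8 and 10.8 in WT, a mean of 31.2 ± 4.44 against 12.7 ± 6.38. IL-33 KO 3, with 224 heavy and 558 kappa counts, was close to the other 2 IL-33 KO libraries in this index although its antibody level was the nearest to WT. The lowest value of each locus was that of WT 1, the library with the fewest antibody counts. For lambda, where Iglv1 dominated, the index stood at 1.15, 1.18 and 1.13 in IL-33 KO and 1.00, 1.08 and 1.07 in WT. Without Ighv10-1, a choice made after seeing the data, the heavy index was 32.0, 36.7 and 31.2 in IL-33 KO and 11.5, 14.9 and 14.3 in WT.

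**Figure D3:**
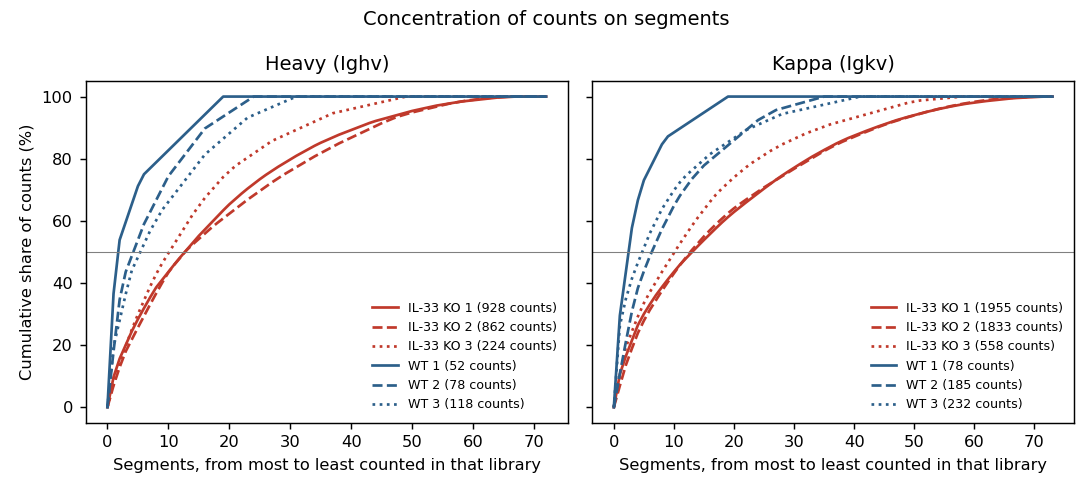
Cumulative share of the heavy and kappa counts of each library (percent) against the number of segments, ordered from the most to the least counted in that library. The line at 50% is reached with 11 to 13 heavy segments in IL-33 KO and 2 to 6 in WT, and with 11 to 14 kappa segments in IL-33 KO and 3 to 7 in WT, at the counts printed for each library.

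The most counted segment was a different one in nearly every library. Among heavy segments it was Ighv1-19 in IL-33 KO 1 (9.70% of heavy counts, 95% exact interval 7.87 to 11.8%), Ighv14-2 in IL-33 KO 2 (6.96%, 5.35 to 8.87%) and Ighv1-26 in IL-33 KO 3 (7.59%, 4.48 to 11.9%). In WT it was Ighv10-1 in WT 1 (36.5%, 23.6 to 51.0%) and in WT 2 (17.9%, 10.2 to 28.3%) and Ighv1-81 in WT 3 (19.5%, 12.8 to 27.8%). Among heavy segments Ighv10-1 alone led more than 1 library. Among kappa segments Igkv1-110 led IL-33 KO 1 with 10.6%, Igkv1-135 led IL-33 KO 2 with 6.93% and Igkv10-96 led IL-33 KO 3 with 10.4%. In WT, Igkv14-111 led WT 1 with 29.5% (19.7 to 40.9%), Igkv4-53 led WT 2 with 10.8% (6.73 to 16.2%) and Igkv1-110 led WT 3 with 26.3% (20.8 to 32.5%), so Igkv1-110 led a library of each genotype. The leading segment held a larger share in each WT library than in each IL-33 KO library at both loci, with 10.6% in IL-33 KO 1 against 10.8% in WT 2 for kappa as the closest pair. The 10 most counted heavy segments held 43.5, 43.4 and 49.6% of counts in IL-33 KO, against 82.7, 74.4 and 66.1% in WT, and the 10 most counted kappa segments 43.6, 43.1 and 49.6% against 88.5, 64.9 and 69.8%. A share of the top segments is raised by low counts alone, which the index above allows for and these shares do not. Neither allows for a small number of cells behind the counts.

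**Figure D4:**
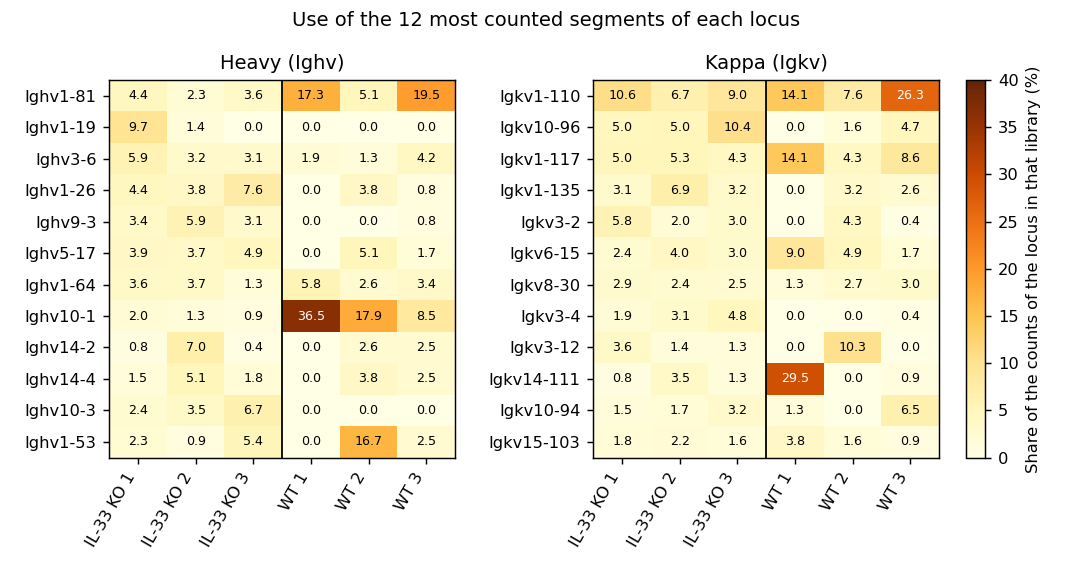
Share of the counts of the heavy (left) or kappa (right) locus that each of the 12 segments most counted over all libraries took in each library, in percent, with IL-33 KO libraries left of the line and WT libraries right of it. The largest squares are Ighv10-1 with 36.5% in WT 1 and Igkv14-111 with 29.5% in WT 1, and no segment shown exceeds 10.6% in an IL-33 KO library.

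Presence in the libraries was uneven. In all 6 libraries 13 segments had a count, 5 heavy, 7 kappa and Iglv1. In all 3 IL-33 KO libraries 102 members had a count, and in all 3 WT libraries 13. In no WT library a count was seen for 47 members, 29 heavy, 17 kappa and Iglv2. No member was absent from every IL-33 KO library. The 13 found everywhere included Igkv1-110, Igkv1-117, Igkv6-15, Igkv8-30, Ighv1-81, Ighv3-6, Ighv1-64 and Ighv10-1. In each IL-33 KO library 75 of the 148 members were higher than in each WT library, 30 heavy, 42 kappa and 3 lambda, and none was lower in each. Over the 15720 genes tested these shares were 7.46% higher and 6.47% lower, and most members had too few counts to be among them. The members had 7019 counts in IL-33 KO, against 814 in WT, so presence in these numbers depends also on the number of counts. A member could pass the summed count of 5 through IL-33 KO alone, as the 47 without a WT count did. The numbers of members that did not overlap therefore describe the members and do not support a difference.

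Some segments came almost wholly from a single IL-33 KO library. Ighv1-19 had 90, 12 and 0 counts in IL-33 KO, against none in WT, so 88.2% of its IL-33 KO counts lay in IL-33 KO 1. Ighv14-2 had 7, 60 and 1 counts in IL-33 KO, against 0, 2 and 3 in WT, and Ighv14-1 had 4, 31 and 0 against none, with 88.2 and 88.6% of the IL-33 KO counts in IL-33 KO 2. These last belong to a single family and are close copies, so their joint peak may rest partly on shared reads, which was not tested. Igkv12-38 had 26 counts in IL-33 KO 2 and none elsewhere. By contrast Igkv10-96, Ighv10-3, Ighv1-26 and Igkv3-4 were spread, with 39.3, 44.8, 45.1 and 46.3% of their IL-33 KO counts in the highest library.

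Over families of segments, breadth overlapped between genotypes for heavy chains and not for kappa chains. Heavy members belonged to 11 families and kappa members to 15. The inverse Simpson index over families was 3.06, 4.98 and 3.55 in IL-33 KO and 3.90, 2.91 and 2.85 in WT for heavy chains. For kappa it was 9.29, 8.74 and 9.29 in IL-33 KO and 5.21, 6.83 and 4.75 in WT. This grouping was added after seeing the data. Ighv1, the largest heavy family with 36 members, held 46.8 ± 8.39% of heavy counts in IL-33 KO, against 48.8 ± 12.3% in WT (SD, n = 3 each). The share of Ighv5 was 10.8, 10.8 and 18.3% in IL-33 KO and 5.77, 6.41 and 5.93% in WT. Ighv3 held 8.73, 8.24 and 8.48% against 3.85, 2.56 and 7.63%, and Ighv9 held 6.03, 7.89 and 4.46% against 0, 0 and 2.54%. Ighv10 ran the other way, with 4.42, 4.76 and 7.59% in IL-33 KO and 36.5, 17.9 and 8.47% in WT, and so did Ighv2 with 6.03, 4.99 and 4.02% against 7.69, 7.69 and 11.9%. These 5 heavy families did not overlap between genotypes, and the other 6 did. Over all genes tested, 7.46% were higher without overlap and 6.47% lower, though in CPM and not in shares. The WT shares rest on few counts. These were 3, 5 and 7 for Ighv5, 2, 2 and 9 for Ighv3 and 0, 0 and 3 for Ighv9. Ighv10 had 19, 14 and 10 in WT, and Ighv2 had 4, 6 and 14. Ighv14 reached 16% in IL-33 KO 2 through the segments named above and 2.68 to 3.23% in the other IL-33 KO libraries. Among kappa families, Igkv17 alone did not overlap, with 3.73, 2.35 and 5.91% in IL-33 KO and 0, 0 and 2.16% in WT. Its WT counts were 0, 0 and 5. Igkv1 held 19.2 ± 1.61% of kappa counts in IL-33 KO, against 27.6 ± 11% in WT, and Igkv4, with 18 members the largest by number, 12.3 ± 6.17% and 17.8 ± 8.75%. These are shares that sum to 100% within a library, so a large share of a single segment, such as Ighv10-1 in WT 1, lowers all others there.

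The split of counts into rows nearer to and farther from the J segments overlapped between genotypes at both loci. The mean distance did not overlap for heavy counts, by a narrow margin, and overlapped for kappa counts. V segments near the J segments and far from them are brought into reach by folding of the locus. The listed heavy rows lay 145 to 2570 kb from Ighj1, all on the minus strand of chromosome 12, and the kappa rows 18.7 to 3167 kb from Igkj1 on chromosome 6. The mean distance of heavy counts from Ighj1 was 1277, 1122 and 1258 kb in IL-33 KO, against 1399, 1288 and 1411 kb in WT, without a test. The closest pair was 1277 and 1288 kb. This mean leans on Ighv1-81, which lies 2491 kb from Ighj1. That segment held 4.42, 2.32 and 3.57% of heavy counts in IL-33 KO, against 17.3, 5.13 and 19.5% in WT. Its part in the difference was not tested. For kappa counts the mean distance from Igkj1 was 1499, 1558 and 1493 kb in IL-33 KO, against 1956, 1193 and 1825 kb in WT, which overlapped. The nearer 57 of 114 heavy rows held 47.7, 61.3 and 51.8% of heavy counts in IL-33 KO, against 59.6, 57.7 and 47.5% in WT. The nearer 52 of 105 kappa rows held 47.4, 46.8 and 48.0% of kappa counts in IL-33 KO, against 21.8, 61.6 and 34.1% in WT. For kappa the IL-33 KO libraries were close together and the WT libraries scattered to both sides of them. Of the 73 kappa members 29 lie on the plus strand, in the direction of Igkj1, and join by deletion of the DNA between, and these held 53.8, 49.0 and 51.8% of kappa counts in IL-33 KO, against 69.2, 50.3 and 50% in WT.

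**Figure D5:**
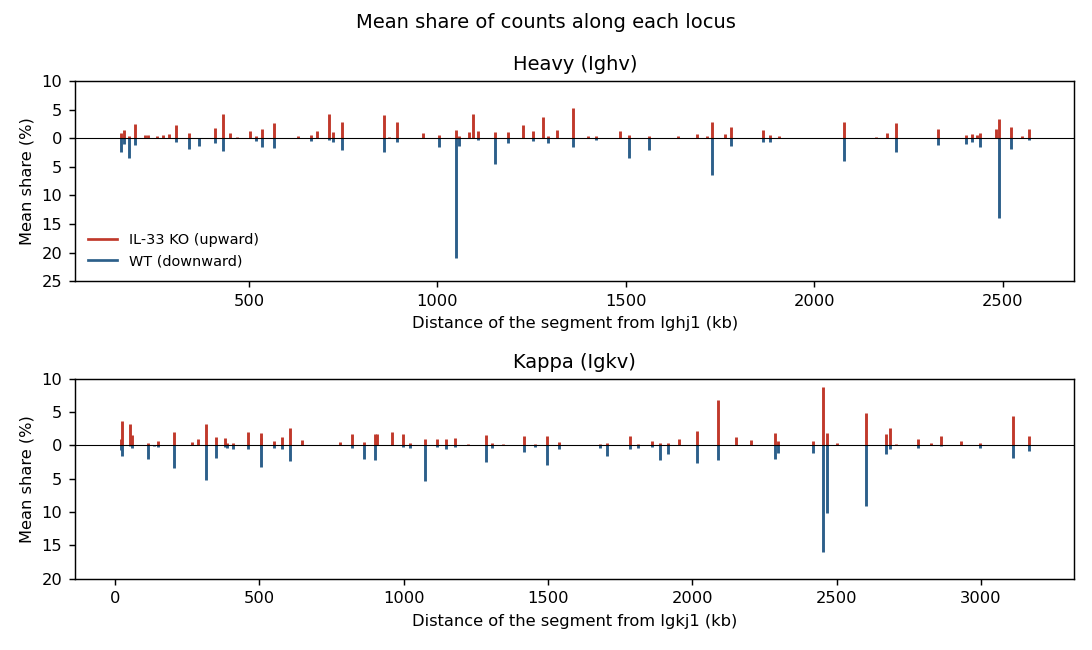
Mean share of the heavy (top) and kappa (bottom) counts taken by each segment, in percent, against its distance from the first J segment of the locus in kb, with IL-33 KO drawn upward and WT downward. Counts spread over the whole of both loci in IL-33 KO, and the tallest WT bars are Ighv10-1 and Ighv1-81 among heavy segments and Igkv1-110 among kappa segments.

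Libraries of IL-33 KO were more like one another in kappa use than WT libraries were. The Morisita index is near 1 where a pair of libraries draws on segments in the same proportions and 0 where it shares none. For kappa it was 0.809 to 0.868 over the 3 pairs within IL-33 KO, 0.261 to 0.525 over the 3 pairs within WT and 0.334 to 0.703 over the 9 pairs between genotypes. For heavy segments it was 0.657 to 0.682 within IL-33 KO, 0.575 to 0.675 within WT and 0.172 to 0.481 between. The heavy values within WT rested in part on Ighv10-1. Without it, a choice made after seeing the data, they were 0.375 to 0.879, and those between genotypes 0.327 to 0.520. Pairs share libraries, each count is again treated as a separate draw, and the index was not tested.

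Variable counts were set against the constant region counts of their locus. The constant region is the part of the chain that every antibody of a class shares, spliced to the V segment in the same RNA. Heavy V counts per 100 heavy constant counts were 13.0, 15.1 and 8.64 in IL-33 KO and 15, 8.48 and 11.5 in WT. Kappa V counts per 100 counts of Igkc, the kappa constant region, were 43.3, 49.2 and 34.2 in IL-33 KO and 48.4, 61.3 and 58.1 in WT. Lambda V counts per count of Iglc2 were 6.38, 4.75 and 5.31 in IL-33 KO and 3.75, 5.2 and 5.0 in WT. The genotypes overlapped in all 3 ratios. Ighd, Iglc1 and Iglc3 had no row under these symbols. The lambda ratio therefore rests on Iglc2 alone and is not a ratio to all lambda constant RNA. The shares of the heavy chain classes differed. Igha, the constant region of IgA, took 86.8 ± 1.5% of heavy constant counts in IL-33 KO, against 58.1 ± 5.43% in WT (SD, n = 3 each). Ighm, that of IgM, took 7.52 ± 2.24% and 33.5 ± 4.35%. The lower Ighm share in IL-33 KO did not reflect a lower mean level. Ighm averaged 15.4 ± 2.46 CPM there, against 11.2 ± 5.35 CPM in WT, and the genotypes overlapped (edgeR adjusted p 0.710). Igha averaged 192 ± 75.5 CPM against 18.5 ± 6.40 CPM, without overlap (edgeR adjusted p 0.0567). The files do not tie a V segment to a constant region, so the use of segments within a class could not be read.

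Genes of the cells that make antibody were read from lists chosen with earlier results known. Of 7 tested constant region genes all had a positive log2 fold change, 6 had an unadjusted p under 0.05 in edgeR, and 0 passed the adjusted threshold. Among all genes tested, 48% had a positive log2 fold change. At an unadjusted p under 0.05 in edgeR, 4.87% of them were higher in IL-33 KO and 4.15% lower. Of 13 tested genes of the plasma cell programme, 6 had a positive and 7 a negative log2 fold change, with 4 at an unadjusted p under 0.05, all higher, and 0 past the adjusted threshold. Igj, the joining chain that links IgA and IgM units, had 2651, 3130 and 763 counts in IL-33 KO, against 60, 127 and 263 in WT (log2 fold change 3.88 ± 0.58 SE, edgeR adjusted p 0.182). Mzb1, a chaperone of antibody assembly in plasma cells, had 68, 80 and 27 counts in IL-33 KO, against 1, 5 and 10 in WT (edgeR adjusted p 0.194). Pou2af1, a coactivator of antibody gene transcription, had 64, 79 and 29 counts in IL-33 KO, against 14, 9 and 16 in WT (edgeR adjusted p 0.276). All 3 were higher in each IL-33 KO library and, like the V segments, lowest in IL-33 KO 3 within that genotype. That order did not hold for Tnfrsf17, a gene of the same list with too few counts to be tested. In CPM it was higher in each IL-33 KO library but highest in IL-33 KO 3, with 5, 14 and 15 counts in IL-33 KO, against 0, 0 and 4 in WT. Prdm1, Xbp1 and Sdc1 have roles in plasma cells and are also expressed by keratinocytes. Xbp1 was lower in every IL-33 KO library, at 182 ± 8.44 CPM in IL-33 KO and 222 ± 24.1 CPM in WT (SD, n = 3 each, edgeR adjusted p 0.564). The same held for Creld2, a protein of the endoplasmic reticulum, at 30.2 ± 5.06 CPM in IL-33 KO and 37.7 ± 1.68 CPM in WT (SD, n = 3 each, edgeR adjusted p 0.557). Sdc1 overlapped and had 24411, 27230 and 23304 counts in IL-33 KO, against 24000, 29262 and 25593 in WT.

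The summed level of B cell genes overlapped between genotypes. Of 8 tested B cell genes, 5 had a positive and 3 a negative log2 fold change and 0 passed the adjusted threshold in edgeR. Their unadjusted p was under 0.05 for 2 in the higher and 1 in the lower direction, against 4.87 and 4.15% of all genes tested. Cd37 had the smallest p of these genes and was lower in every IL-33 KO library. It had 158, 142 and 152 counts in IL-33 KO, against 197, 214 and 230 in WT (edgeR adjusted p 0.473). Cd22 and Blk also had a negative log2 fold change, and their genotypes overlapped. Cd79a, a signalling part of the B cell receptor, had 17, 14 and 11 counts in IL-33 KO, against 3, 4 and 9 in WT. Ms4a1, a surface antigen of B cells that plasma cells lose, had 3, 11 and 1 counts in IL-33 KO, against 1, 2 and 3 in WT. Summed over the 13 listed B cell genes, the level was 25.1 to 32.8 CPM in IL-33 KO and 20.5 to 31.1 CPM in WT. Of the machinery that joins V segments in developing B cells, Rag2 and the surrogate light chain gene Igll1 had no count in any library, and Rag1 had 4, 2 and 1 counts in IL-33 KO, against 7, 7 and 3 in WT. Of 8 tested genes of IgA transport and homing, 4 had a positive and 4 a negative log2 fold change and 0 passed the adjusted threshold in edgeR, with 2 at an unadjusted p under 0.05. These were Ccl28, a chemokine that draws IgA plasma cells, with 13, 12 and 12 counts in IL-33 KO, against 1, 2 and 6 in WT, and its receptor Ccr10, with 26, 26 and 26 counts against 11, 19 and 14.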

How the data were processed

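RNA was sequenced from 3 IL-33 KO and 3 WT libraries, with genotype and number taken from the sample titles. The authors deposited gene-level read counts, and FPKM values of the same genes and libraries. STAR, RSEM and mm10 are named in the submitters' processing notes, without versions. The deposited counts are whole numbers, which entered the tests as they stand. The authors' FPKM values divide each count by the gene length listed in the file and by the total count. How reads matching several segments were divided, and how strand was treated, are not given in the sources used here.

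The members and marker lists were chosen with earlier results of these data known. The count test was that of edgeR 4.0.16 under R 4.3.3 (filterByExpr, TMM scaling, quasi-likelihood F test, two-sided, genotype only, Benjamini-Hochberg adjustment over 15720 genes, threshold 0.05), after a check on simulated counts with known changes. The common biological coefficient of variation was 21.3%. Summed levels, shares, the unbiased inverse Simpson index, calculated (hypergeometric) thinning and the Morisita index were computed in Python 3.11.15 and described without a test. Intervals are 95% Clopper-Pearson intervals from SciPy 1.17.1. Coding sequences of 203 of the 222 rows were read from GENCODE M21 and compared with Biopython 1.88. Figures were drawn with matplotlib 3.10.9.

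Named were the 8 heavy, 8 kappa and 3 lambda segments with most counts, the leading segment of each library and locus, the 3 smallest p values in each direction, and rows at the threshold. Other segments were named after their values were seen. The alternatives were other scalings and filters, DESeq2 1.42.0, robust edgeR, limma 3.58.1 on log2(FPKM + 0.1) or log2(FPKM + 1), a replicate block, other indices and member rules, and each library left out in turn. Every pair of libraries differed beyond sampling noise, with a chi-square over degrees of freedom of 31.7 or more. Single values of some listed marker genes are not reported here.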

Additional observations from a re-analysis of the deposited data

How the results depend on the processing

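The log2 ratio of the summed level kept its direction and size under every scaling, member rule and unit tried, and with each library left out it ranged from 2.73 to 3.41 for heavy, 2.85 to 3.50 for kappa and 2.77 to 3.6 for lambda segments. The difference in heavy breadth (IL-33 KO minus WT, 22.5 by the inverse Simpson index) was 8.88 segments at equal depth and 0.64 over families, and 19.7 to 24.3 with a library left out. The difference in kappa breadth (18.6) was 25 by the exponential of Shannon entropy, 12.2 at equal depth and 3.51 over families, and 16 to 22.1 with a library left out. These measures are on different scales, and the family grouping was chosen after seeing the data. The difference in the kappa share of light chain counts (0.69 percentage points) ranged from -0.72 to 1.76 with a library left out, which changed its sign. The alternative without pseudogenes kept the gene types IG_V_gene and IG_LV_gene, since 147 of the 148 members carry the second type, and removed no member.

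The number of segments that passed in edgeR, 0, depended on the test and filter. It was 1 with upper quartile factors, total counts or a summed count of at least 10 (Igkv3-4 each time), 9 with no filter, 38 in DESeq2, 9 in limma on log2(FPKM + 1) and 6 on log2(FPKM + 0.1), all higher in IL-33 KO. With a library left out it was 0 to 1, the 1 being Iglv1 without IL-33 KO 3 (adjusted p 0.0212 in edgeR) and Igkv10-96 without WT 3. Over all genes 3 passed, and 5 with upper quartile factors, 5 with total counts, 33 with no filter, 6 with a total of at least 10, 234 in DESeq2, 16 and 13 in limma, and 2 to 24 with a library left out, with 24 without WT 3 and 10 without IL-33 KO 2. The causes of these shifts were not tested. Of the values of the 17 tested named segments under other settings, 240 stayed on the same side of the threshold with the same direction, 32 passed it and none reversed.

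The replicate numbers did not pair the libraries, as libraries of the same number had correlations of -0.264, -0.117 and -0.378 between their deviations from the genotype means. With the replicate block 2 genes and 0 segments passed. Counts of single segments were few in WT, whose libraries held 145 to 380 variable segment counts, against 851 to 3221 in IL-33 KO libraries. The parts of low counts and of the spread between libraries in the results for single segments were not tested.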
